A study of Mus musculus with 17 samples.

Results

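Bmp2, Bmp4, Bmp7, Tgfb1, Tgfb2, Tgfb3 and the 4 Id genes, Id1, Id2, Id3 and Id4, were followed in mammary tumors of mice that carry a CUX1 transgene. These 10 genes, chosen by name, are 10 of 28786 genes on the array and are read by 14 of its 41174 probes. The tumors came from FVB mice expressing the p75 isoform (9 tumors) or the p110 isoform (8 tumors) of the transcription factor CUX1 under control of MMTV, the mouse mammary tumor virus promoter region. Epithelial tumor cells were cut out by laser, their RNA was amplified in 2 rounds, and each tumor was set against a universal mouse reference RNA on 2-color arrays with the dyes swapped, 38 arrays in all for 17 tumors. Each tumor came from 1 mouse and carries the name of the transgene and the number of that mouse. By histology there were 4 adenosquamous carcinomas, 9 solid carcinomas, 2 adenomyoepitheliomas, 1 adenocarcinoma and 1 adenoma. By the clusters in the study's heat map of Wnt genes 5 tumors were high-Wnt, 5 were medium-Wnt and 7 were low-Wnt. No normal mammary gland was among the samples, and the ages of the mice were not given in the sources used here.

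Bone morphogenetic proteins (BMPs) and the TGF-β proteins are secreted ligands of one superfamily. BMPs act through receptors that phosphorylate Smad1, Smad5 and Smad9, whereas TGF-β acts mainly through Smad2 and Smad3. The Id genes encode small helix-loop-helix proteins without a DNA-binding region, which bind E proteins and keep them from DNA. Id1, Id2 and Id3 are classical targets of BMP-activated Smads and are often used as a readout of BMP signaling. In mammary epithelium TGF-β is known to restrain proliferation and to promote epithelial-to-mesenchymal transition, Id2 to take part in the development of milk-producing cells, and Id4 to mark basal cells.

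The sequence before the start of 3 Id genes is shown because these genes, although relatives, had different patterns in the tumors. Each line gives 250 bases of RefSeq sequence (mouse build GRCm38.p6) that end at the base before the annotated transcript start, read 5′ to 3′ in the direction of the gene. Capitals mark GGCGCC, the core letters of a BMP response element, and CCAAT, read on either strand.
Id2, chr12:25096093-25096342, minus strand: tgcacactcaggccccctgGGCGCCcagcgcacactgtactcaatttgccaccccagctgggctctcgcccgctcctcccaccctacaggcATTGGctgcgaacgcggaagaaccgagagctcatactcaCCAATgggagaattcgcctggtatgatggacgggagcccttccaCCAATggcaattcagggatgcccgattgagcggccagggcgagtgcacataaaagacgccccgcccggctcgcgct
Id3, chr4:136143572-136143821, plus strand: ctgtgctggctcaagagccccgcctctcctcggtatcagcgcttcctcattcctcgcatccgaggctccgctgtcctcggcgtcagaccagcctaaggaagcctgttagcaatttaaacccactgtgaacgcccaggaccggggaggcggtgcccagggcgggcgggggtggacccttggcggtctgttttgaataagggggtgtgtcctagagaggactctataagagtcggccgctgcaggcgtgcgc
Id4, chr13:48260866-48261115, plus strand: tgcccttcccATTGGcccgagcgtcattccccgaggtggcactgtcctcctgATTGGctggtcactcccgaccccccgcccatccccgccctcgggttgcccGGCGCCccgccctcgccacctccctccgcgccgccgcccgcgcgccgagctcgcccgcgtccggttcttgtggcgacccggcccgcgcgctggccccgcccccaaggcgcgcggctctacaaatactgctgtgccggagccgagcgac
Id2 held 1 GGCGCC and 3 CCAAT, and Id4 held 1 GGCGCC and 2 CCAAT. The Id3 window held neither, and held the Smad box letters CAGAC 2 times (either strand, left in lower case). None of these matches overlapped another. Of 32851 such windows in the table, 9.59% held GGCGCC, 33.8% CCAAT and 42.2% CAGAC. Tgfb2 held 2 CAGAC and 1 CCAAT, and the windows of Bmp4 and Tgfb1 held none of these letters. Windows were at hand for 6 of the 10 genes, and those of Bmp2, Bmp7, Tgfb3 and Id1 were not used here.

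The probes of Bmp4, Tgfb1 and Id3 are shown because several values below turn on whether these dim probes were above background. Each has 60 bases, and positions are those of the scanner files (build mm7).
Bmp4 probe, chr14:41704207-41704266, minus strand: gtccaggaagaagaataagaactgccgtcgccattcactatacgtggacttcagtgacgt
Tgfb1 probe, chr7:22478890-22478949, plus strand: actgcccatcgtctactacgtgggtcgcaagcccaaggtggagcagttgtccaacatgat
Id3 probe, chr4:135522597-135522771, plus strand: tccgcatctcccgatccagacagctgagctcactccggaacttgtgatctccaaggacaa
The Id3 probe spans more genome than its own length.

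All levels below are log2 ratios of tumor over reference for the brightest probe of a gene, 1 value per tumor, unless a tumor color is named. A gene is called measured in a tumor when the tumor color of its probe stood well above background on all arrays made from it. Bmp2 was measured in 0 of 17 tumors and its probe was above background on 0 of 38 arrays in the tumor color. Its ratios, from -0.11 to 0.07, are therefore those of 2 dim colors and hold no level. Tgfb1 was measured in 0 tumors and its tumor color was above background on 4 of 38 arrays, so no fold is given for it either. Bmp4 was measured in 3 tumors (p75-94, p75-129 and p110-314) and its tumor color was above background on 10 arrays. Tgfb3 and Id2 were measured in all 17 tumors, Bmp7 and Tgfb2 in 16 (not in p110-121), Id1 in 15 (not in p110-98 and p110-374), Id4 in 12 and Id3 in 9. Of these genes, Bmp7 varied most between tumors, with an SD of 1.79 over 17 tumors, at the 97.5th percentile of the SDs of 9594 genes measured in at least 12 tumors, whose median SD was 0.648. The SD was 1.34 for Id2, 1.32 for Tgfb2, 1.18 for Id4, 1.07 for Id1, 0.93 for Tgfb3 and 0.72 for Id3. Between arrays of one tumor the SD of these 7 genes lay between 0.21 and 0.51. In Cy5 the tumor over reference ratio of Id1 was higher than in Cy3 in 17 of 17 tumors and that of Tgfb3 in 0 of 17, a dye effect that the swapped arrays average out.

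Some tumors stood apart on the whole array. In p110-121 the 6 epithelial markers on the array averaged -1.65 with 2 of them measured, and 8 immune markers averaged 2.56, whereas the epithelial markers averaged between 1.29 and 3.61 in the other 16 tumors. The tumor color was weak in p110-98, p110-225 and p110-374. The reference color of p75-94 and p75-129 correlated less with that of the other p75 arrays (median r 0.95 and 0.94) than in the other tumors (0.98 to 0.99). The arrays of these 2 tumors were the only ones scanned on their day, so that tumor and day of scanning cannot be told apart for them. The p75 and the p110 arrays were scanned in different years, so that isoform and year of scanning cannot be told apart. In bulk RNA, fewer cells of a type and less RNA per cell cannot be told apart. RNA of other cell types was measured as well: Lyz2 (macrophages), Col1a1 (fibroblasts) and Vwf (endothelium) were above background in 17 tumors. Of the 8 immune markers, Lyz2 and Csf1r were measured in 17 tumors, Adgre1 in 16, Ptprc in 15 and Cd3e in 13. Cd68 was measured in 11, Itgam in 3 and Cd79a in 2. Of the 9 fibroblast markers, Pdgfrb was measured in 16, Lum in 15, Pdgfra in 9 and the others in 17. Of the 8 endothelial markers, Emcn was measured in 16 tumors, Kdr in 14, Cldn5 in 13, Cdh5 in 11, Tek in 6, and Pecam1 and Eng in 1 each. Of the 6 adipocyte markers, Fabp4 was measured in 16, Lpl in 14, Adipoq in 12, Cfd in 11, Plin1 in 9 and Lep in 0. The mean of the adipocyte list ran from 0.21 to 4.65 in high-Wnt and from 0.83 to 5.46 in low-Wnt tumors. The high-Wnt minus low-Wnt difference was above 0 for 0 of 6 adipocyte, 8 of 9 fibroblast, 2 of 8 endothelial and 7 of 8 immune markers. In these lists 0 genes had an adjusted p under 0.05 in limma. The part of these cell types in the results below was not tested.

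Whether the ligands and Id genes differ with the level of Wnt gene expression was asked by comparing the 5 high-Wnt with the 7 low-Wnt tumors. In the limma fit over all genes 53 of 28786 genes (0.184%) had an adjusted p under 0.05 (40 with the higher mean in high-Wnt tumors and 13 with the lower), and 0 of the 10 genes did. The unadjusted p was under 0.05 for 3424 genes, among them Bmp4, Bmp7, Id1 and Id2. The means of Bmp4, Bmp7 and Id1 were higher and that of Id2 was lower in high-Wnt tumors, in each case without a call over all genes. Squamous markers differed between the same clusters. The mean of the 8 on the array ran from -0.26 to 2.17 in high-Wnt tumors (2 to 7 measured). In low-Wnt tumors it ran from -0.56 to -0.30 (1 to 3 measured), without overlap. The nearest values were -0.26 in p75-47 and -0.30 in p75-101, each with 2 of the 8 measured. Among high-Wnt tumors only p75-80 and p75-94 had 7 of the 8 measured. The difference between the clusters was above 0 for 8 of the 8 markers, of which 0 passed in limma. Of the 8, 7 had an unadjusted p under 0.05, where 11.9% of all genes had one. Only 4 of the 8 were measured in 5 or more tumors. Their part in the results was not tested.

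**Figure D1:**
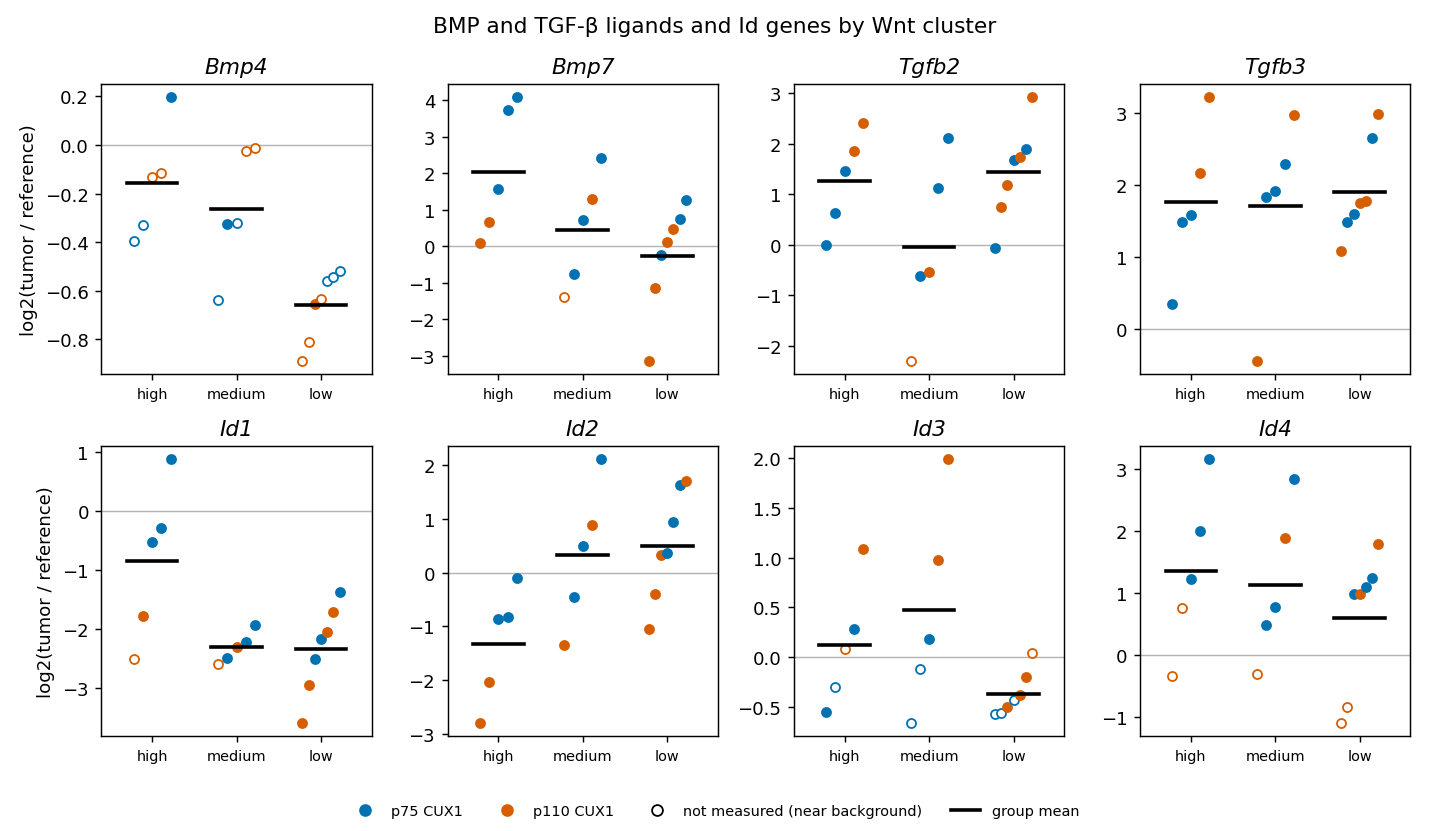
Log2 tumor over reference (vertical axes, each with its own range) of 8 genes in the 17 tumors, arranged by Wnt cluster. Points are tumors in blue (p75) or orange (p110), open where the gene was not measured, and black bars are group means. The 3 highest Id1 values and the 2 highest Bmp7 values belong to p75 high-Wnt tumors, and all 5 high-Wnt tumors lie below 0 for Id2.

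Bmp7, an osteogenic BMP also made by many epithelia, was 3.73 in p75-94, 4.09 in p75-80, 1.57 in p75-47, 0.09 in p110-225 and 0.68 in p110-374, the 5 high-Wnt tumors. In the 7 low-Wnt tumors it ran from -3.14 (p110-314) through a median of 0.13 to 1.26 (p75-150). The clusters overlapped, since both p110 high-Wnt tumors lay within the low-Wnt range. The high-Wnt mean was 2.03 ± 1.80 (SD, n = 5), and the low-Wnt mean was -0.28 ± 1.48 (SD, n = 7). The difference of 2.31 (SE 0.90) had an adjusted p of 0.308 in limma, and an exact two-sided permutation test of this value alone gave p = 0.0354. A second Bmp7 probe, chr2:172614169-172614228, followed the first at chr2:172614090-172614149 (both mm7, minus strand) with r = 0.97 over 17 tumors and gave a difference of 2.07. The tumor color alone gave 2.16.

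Bmp4, a BMP of mesenchyme and of the early mammary bud, was 0.20 in p75-94, -0.39 in p75-80, -0.33 in p75-47, -0.13 in p110-225 and -0.12 in p110-374. In low-Wnt tumors it ran from -0.89 (p110-360) through a median of -0.63 to -0.52 (p75-101). No high-Wnt value overlapped a low-Wnt value, a pattern of dim signals, since Bmp4 was measured in 1 of 5 high-Wnt and 1 of 7 low-Wnt tumors. The difference of 0.50 (SE 0.12) had an adjusted p of 0.104 in limma and an exact permutation p of 0.00126, the smallest that 5 against 7 tumors can give. Taken in the tumor color alone, it was 0.19. The one high-Wnt tumor in which Bmp4 was measured, p75-94, had a reference color of 7.27 at this probe on the log2 scale, where 7 other p75 tumors had 7.97 to 8.09 and p75-129 had 7.30. The part of the reference color in the Bmp4 value of p75-94 was not tested.

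Among the TGF-β ligands, Tgfb2 and Tgfb3 gave no call between the clusters and were broad within them. Tgfb2 was 0.63 in p75-94, -0.01 in p75-80, 1.45 in p75-47, 1.86 in p110-225 and 2.42 in p110-374, and in low-Wnt tumors it ran from -0.06 (p75-534) through a median of 1.67 to 2.93 (p110-416). The difference was -0.17 (SE 0.69, adjusted p 0.944 in limma), its sign turned within p110 tumors (0.49), and it was -1.09 with median centering in place of loess. Tgfb3, measured in every tumor, was 0.35 in p75-94, 1.48 in p75-80, 1.58 in p75-47, 2.16 in p110-225 and 3.21 in p110-374. In low-Wnt tumors it ran from 1.08 (p110-416) through a median of 1.75 to 2.98 (p110-314), so that the high-Wnt tumors held both the lowest and the highest value of these clusters. The difference was -0.14 (SE 0.56, adjusted p 0.942 in limma), and it was 0.21 without p75-94, 0.79 within p110 tumors and -1.06 with median centering. Tgfb3 was above the reference in 16 of 17 tumors, with -0.44 in p110-121.

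Id1 was -0.52 in p75-94, 0.89 in p75-80, -0.29 in p75-47, -1.78 in p110-225 and -2.50 in p110-374, where it was not measured. In low-Wnt tumors it ran from -3.59 (p110-416) through a median of -2.17 to -1.37 (p75-534). The 3 p75 high-Wnt tumors were above every other tumor and the 2 p110 high-Wnt tumors were within the low-Wnt range. The mean was -0.84 ± 1.33 (SD, n = 5) against -2.33 ± 0.75 (SD, n = 7). The difference of 1.50 (SE 0.49) had an adjusted p of 0.22 in limma and an exact permutation p of 0.0303. A second probe 10 bases away on chromosome 2 had r = 0.99 with the first and a difference of 1.50. It was 0.29 in the tumor color alone, and the reference color itself differed by -0.76 between these tumors at this probe, the low-Wnt tumors being higher.

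Id2 was the one Id gene with a lower mean in high-Wnt tumors. It was -0.87 in p75-94, -0.09 in p75-80, -0.82 in p75-47, -2.80 in p110-225 and -2.04 in p110-374, all below the reference. In low-Wnt tumors it ran from -1.04 (p110-416) through a median of 0.36 to 1.71 (p110-314), and 5 of 7 were above every high-Wnt tumor. The difference of -1.83 (SE 0.63) had an adjusted p of 0.247 in limma and an exact permutation p of 0.0152, and it was -2.17 in the tumor color alone. The lowest values were those of p110-225 and p110-374, whose tumor color was weak, and without the 3 tumors of weak color the difference was -1.10. The mean of all Id2 probes gave -1.12. A second Id2 probe, dimmer and measured in 7 tumors, had r = 0.43 with the first and a difference of -0.41, so the size rests on the brighter probe (chr12:22930541-22930600, mm7, minus strand).

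Id3 and Id4 overlapped widely between the clusters. Id3 was measured in 3 of 5 high-Wnt and 3 of 7 low-Wnt tumors, with a mean of 0.12 ± 0.63 (SD, n = 5) in the first and -0.38 ± 0.22 (SD, n = 7) in the second. The difference was 0.50 (SE 0.37, adjusted p 0.642 in limma, exact permutation p = 0.0606), and it was 0.26 without p110-374. In the tumor color alone it was 0.94, while the reference color at this probe differed by 0.60 between the clusters. The highest Id3 values of all tumors were 1.99 in p110-98, 1.09 in p110-374 and 0.98 in p110-121. Id4 was 3.16 in p75-94, 2.00 in p75-80, 1.23 in p75-47, -0.34 in p110-225 and 0.76 in p110-374, the last 2 not measured. In low-Wnt tumors it ran from -1.09 (p110-416) through a median of 0.99 to 1.79 (p110-143). The difference of 0.77 (SE 0.68) had an adjusted p of 0.696 in limma and was -0.0022 within p110 tumors, 0.32 without p75-94 and 1.19 without p110-225, and a second, dimmer Id4 probe gave 0.13.

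Since 3 of 5 high-Wnt tumors were p75 and 4 of 7 low-Wnt tumors were p110, the clusters were also compared within each transgene. Within p75 tumors (3 against 3) Bmp4, Bmp7 and Id1 were higher and Id2 was lower in high-Wnt tumors without overlap, with differences of 0.36, 2.55, 2.04 and -1.57, where Bmp4 was measured in 1 of the 6 tumors (p75-94), so that its order is one of dim values. Within p110 tumors (2 against 4) Bmp4 and Id3 were higher and Id2 was lower without overlap, with differences of 0.62, 0.85 and -2.56. Bmp2, which held no level, was also higher there without overlap, with a difference of 0.01. How many of all genes separate in groups this small was not counted, so the orders within p75 and within p110 are a description. The Id3 groups were kept apart by 0.09 in p110-225 against 0.04 in p110-143, neither of them measured, so that this order is one of dim values as well. Bmp7 and Id1 differed there by 1.31 and 0.43, with overlap. Both high-Wnt p110 tumors had a weak tumor color, with 24.7% and 20.9% of probes above background, against 35.7% to 54.6% in the 4 low-Wnt p110 tumors, so that cluster and weak color cannot be told apart within p110. In a limma fit within p110 tumors 1 of the 10 genes, Bmp4, passed with an adjusted p of 0.0487, where 346 of 28786 genes (1.2%) passed, and Bmp4 was measured in 1 of those 6 tumors. The difference between the transgenes in the high-Wnt minus low-Wnt effect passed in limma for 3 of 28786 genes (0.0104%), and for 0 of the 10, while 3622 genes had an unadjusted p under 0.05. For Id1 this difference of effects was 1.61 (SE 0.72, adjusted p 0.381 in limma).

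Whether histological type goes with these genes was asked by comparing the 4 adenosquamous with the 9 solid carcinomas. Of the 4, 3 (p75-47, p75-80 and p75-94) were also the 3 high-Wnt tumors of p75, whereas 1 of 9 solid carcinomas was high-Wnt, so that the differences by cluster, histology and transgene share these tumors and are not independent of each other. Adenosquamous carcinomas, glandular tumors with keratinizing squamous areas, had higher mean ratios of Bmp7 and of Id1 than solid carcinomas, an order that turned for Id1 in the tumor color alone, and no gene of the array passed the test. In limma 0 of 28786 genes (0%) and 0 of the 10 passed. Bmp7 and Id1 were among 1588 genes whose unadjusted p was under 0.05. Without p75-101, the adenosquamous carcinoma of the low-Wnt cluster, 27 genes passed and again 0 of the 10.

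**Figure D2:**
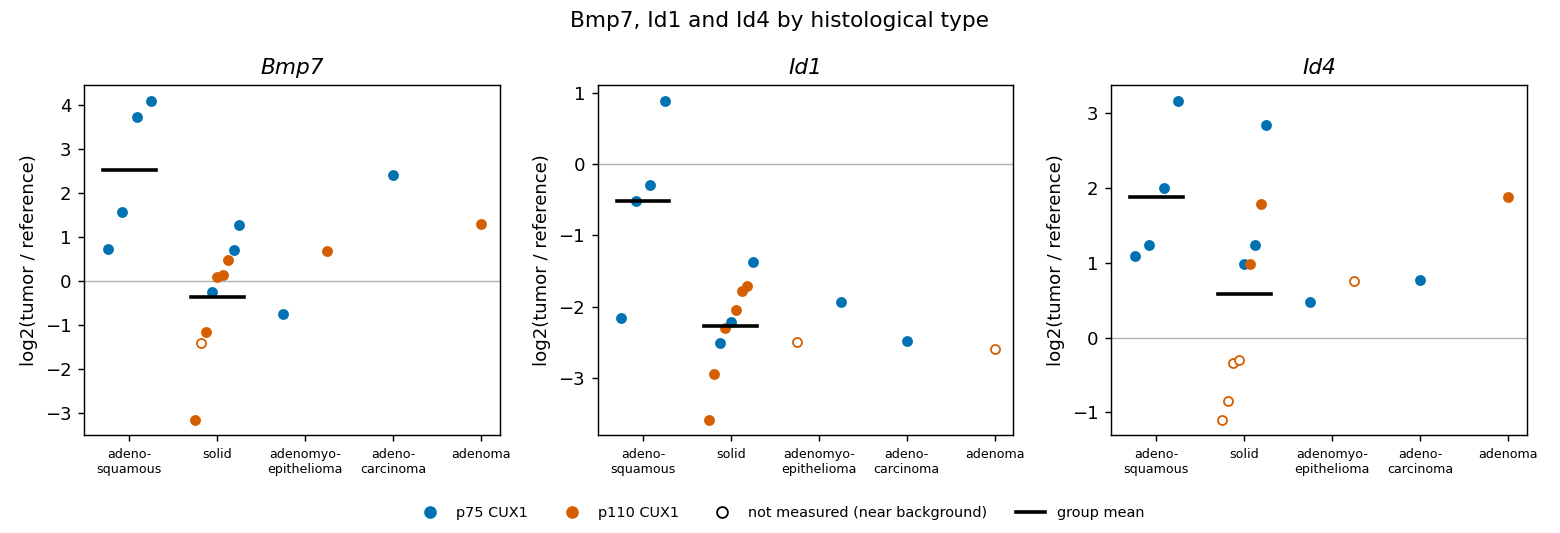
Log2 tumor over reference (vertical axes) of Bmp7, Id1 and Id4 by histological type. Points are tumors in blue (p75) or orange (p110), open where not measured, and bars are means of types with 4 or more tumors. The adenosquamous mean of Bmp7 is 2.53 against -0.37 in solid carcinomas, and the lowest adenosquamous tumor lies within the solid range in the panels of Bmp7 and Id1.

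Bmp7 was 4.09, 3.73, 1.57 and 0.74 in the adenosquamous tumors p75-80, p75-94, p75-47 and p75-101. In the solid carcinomas it ran from -3.14 through a median of 0.09 to 1.26, so that only p75-101 overlapped them. The difference of 2.89 (SE 0.80) had an adjusted p of 0.822 in limma and an exact permutation p of 0.0042, and it was 2.51 with the second probe. The adenocarcinoma p75-216 had 2.41 and the adenoma p110-98 had 1.30, both above every solid carcinoma. Id1 was 0.89, -0.52, -0.29 and -2.17 in the same 4 tumors, and from -3.59 through a median of -2.22 to -1.37 in solid carcinomas. Its difference of 1.75 (SE 0.49) had an adjusted p of 0.822 in limma and an exact permutation p of 0.00699, and in the tumor color alone it turned to -0.11. Id4 had means of 1.87 ± 0.95 (SD, n = 4) and 0.58 ± 1.31 (SD, n = 9), with an exact permutation p of 0.101. Its difference was 1.29 with this probe and 0.17 with the second, dimmer Id4 probe. Id2 had means of -0.21 and -0.12, and Tgfb2 of 0.94 and 1.12, both differences with a sign that changed with the processing.

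All 4 adenosquamous carcinomas were p75 tumors, and within p75 they could be set against 3 solid carcinomas, where the smallest exact p is 0.0286. There the difference was 1.96 for Bmp7 (exact permutation p = 0.171), 1.51 for Id1 (p = 0.114 by the same exact test) and 0.18 for Id4 (exact permutation p = 0.743). Tgfb3 was lower in each of the 4 adenosquamous tumors, 0.35 to 1.58, than in the 3 p75 solid carcinomas, 1.60, 2.29 and 2.65, a difference of -0.95 (exact permutation p = 0.0286). The nearest values, 1.58 and 1.60, stand beside an SD of 0.43 between arrays of one tumor. Bmp2, measured in 0 tumors, reached the same exact permutation p with a difference of 0.07, so that dim values can reach it too. Against all 9 solid carcinomas Tgfb3 overlapped, with a difference of -0.53 (SE 0.53, adjusted p 0.883 in limma). It was -0.81 without p110-121 and -0.24 without p75-94, and that of Tgfb2 was -0.61 without p110-121. The labels call p110-121 a solid carcinoma, but the study's list of solid carcinomas does not name it. Squamous markers were highest in p75-80 and p75-94, and in the other 2 adenosquamous tumors they lay within the range of the solid carcinomas. The mean of 8 squamous markers on the array was 2.17 in p75-80 and 1.24 in p75-94, with 7 of 8 measured in each, -0.26 in p75-47 and -0.30 in p75-101, with 2 measured in each, and between -0.56 and 0.09 in the solid carcinomas, with 1 to 7 measured. Ivl (involucrin) was measured in 0 of 17 tumors. Over 17 tumors the mean of these markers had r = 0.67 with Bmp7 and 0.69 with Id1, given as a description. The mean of 7 basal and myoepithelial markers ran from 2.48 to 4.05 in adenosquamous and from -0.55 to 3.47 in solid carcinomas, with 6 to 7 and 2 to 7 measured. The difference was above 0 for 4 of these 7, of which 0 passed in limma and 2 had an unadjusted p under 0.05, Krt14 with 3.50 (adjusted p 0.494 in limma) and Trp63 with 2.73 (adjusted p 0.871 in limma). The part of squamous and of basal cells in the Bmp7 and Id1 values was not tested.

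Whether the CUX1 isoform goes with these genes was asked by comparing 9 p75 with 8 p110 tumors, a contrast that cannot be told apart from the scan year. In limma 132 of 28786 genes (0.459%) passed, of which 61 had the higher mean in p75 and 71 in p110, and 0 of the 10 passed. The unadjusted p was under 0.05 for 4039 genes. Bmp7 ran from -0.76 through a median of 1.26 to 4.09 in p75 tumors and from -3.14 through 0.11 to 1.30 in p110 tumors, with overlap. The difference of 1.88 (SE 0.73) had an adjusted p of 0.239 in limma and an exact permutation p of 0.0246. Id4 was measured in 9 of 9 p75 and in 3 of 8 p110 tumors, and ran from 0.48 through 1.23 to 3.16 in p75 and from -1.09 through 0.23 to 1.89 in p110. The difference of 1.18 (SE 0.49) had an adjusted p of 0.278 in limma and an exact permutation p of 0.0353. The second, dimmer Id4 probe gave a difference of 0.25. Id3 averaged -0.30 ± 0.35 (SD, n = 9) in p75 and 0.39 ± 0.88 (SD, n = 8) in p110. Its difference of -0.69 (SE 0.30, adjusted p 0.318 in limma, exact permutation p = 0.04) was -0.03 in the tumor color alone. Id2, Tgfb2 and Tgfb3 overlapped, with differences of 0.95, -0.09 and -0.25, of which those of Tgfb2 and Tgfb3 changed sign with the processing. The second, dimmer Id2 probe gave 0.0097. Of the 7 basal and myoepithelial markers 5 had a higher mean in p75, and 0 passed in limma. An unadjusted p under 0.05 was found for 2 of the 7, Krt14 (2.23) and Trp63 (2.01), where 14% of all genes had one. The part of basal cells in the Bmp7 and Id4 values was not tested.

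Id1 had a mean of -1.40 ± 1.18 (SD, n = 9) in p75 and -2.43 ± 0.62 (SD, n = 8) in p110 tumors, a difference of 1.03 (SE 0.45, adjusted p 0.312 in limma, exact permutation p = 0.0416). Both colors of the array were lower in p75 than in p110 here, the reference color by more than the tumor color. In the tumor color alone, quantile normalized between arrays, Id1 was 8.32 in p75 and 9.05 in p110 tumors, a difference of -0.73. The reference color at the same probe was 10.52 in p75 and 12.80 in p110 arrays, a difference of -2.28, although the labels give 1 pooled reference for all arrays. Of 18917 probes above background, 1.8% had a larger difference of the reference color between the transgenes, and the median was 0.324. In p75-47 the Id1 reference was 9.16, the lowest of all tumors. For Bmp7 the reference differed by 0.47 and the tumor color by 2.22, and for Id4 the reference differed by -0.26 and the tumor color by 0.95, so that both kept their direction in the tumor color. Id3 had a reference difference of 0.97, with 11.54 in p75-129 and 10.52 in p75-94, while the other p75 tumors lay between 8.01 and 8.56. When median centering took the place of loess, 1241 of 28786 genes (4.31%) passed in limma, among them 2 of the 10, Bmp7 with 2.91 (adjusted p 0.0339 in limma) and Id1 with 2.22 (adjusted p 0.0321 in limma).

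**Figure D3:**
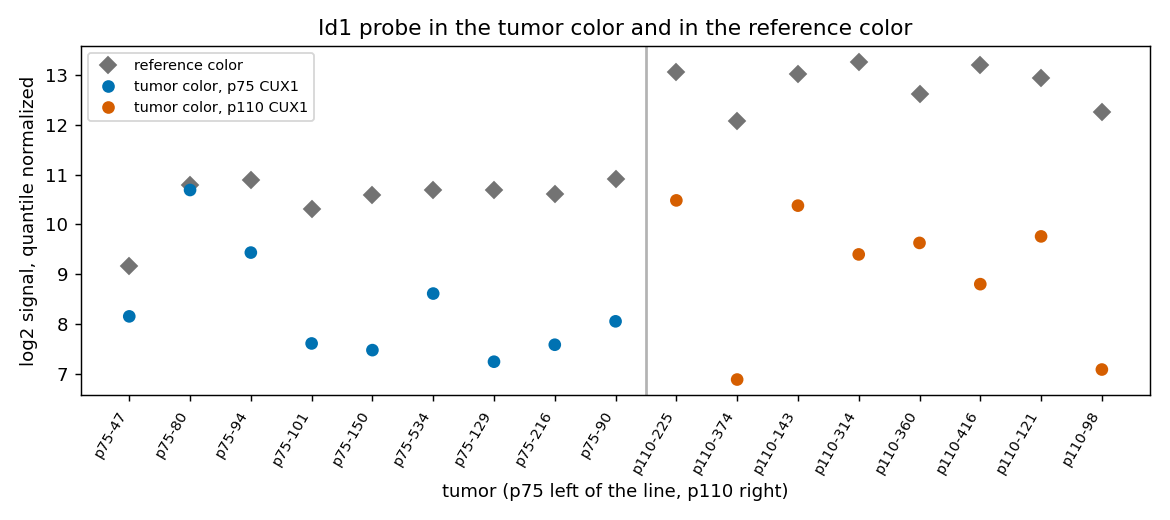
Log2 signal of the Id1 probe after quantile normalization (vertical axis) in the reference color (gray diamonds) and in the tumor color (circles) for each of the 17 tumors, p75 left and p110 right of the line. The reference lies near 10.52 on p75 arrays and 12.80 on p110 arrays on average, and the tumor color of p75-80 comes closest to its reference.

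Since Id genes are used as a readout of BMP signaling, each of Bmp2, Bmp4 and Bmp7 was set against each of the 4 Id genes over the 17 tumors, 12 relations, with p-values adjusted over the 12. Of these, 4 use Bmp2, which had no level, and 4 use Bmp4, which was measured in 3 tumors, so that the 4 with Bmp7 alone rest on a ligand measured in most tumors. Bmp7 and Id4 went together most closely, with r = 0.75 (permutation p = 7e-04, adjusted 0.0084) and Spearman's rho = 0.77 (permutation p = 0.00047, adjusted 0.00564). Without p110-314 and p75-80, the tumors farthest from the median of Bmp7, r was 0.70. The tumor color alone gave r = 0.68 (permutation p adjusted over the 12, 0.0361). Among p75 tumors alone it was 0.55 (exact permutation p = 0.119), or 0.11 when p75-80 and p75-94 were left out, and among p110 tumors it was 0.78 (exact permutation p = 0.0219, adjusted 0.131). Id4 was not measured in 5 of 8 p110 tumors, so the lower end of the relation consists of dim values.

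Bmp7 and Id1 had r = 0.67 (permutation p = 0.00378, adjusted 0.0151) but Spearman's rho = 0.38 (permutation p = 0.139, adjusted 0.278), and r was 0.46 without p110-314 and p75-80. Within p75 the relation rests on a few tumors, since r was 0.61 there and became -0.09 without p75-80 and p75-94. Within p110 r was 0.45 (exact permutation p = 0.269, adjusted 0.516). In the tumor color alone r was -0.07 over 17 tumors. Bmp4 and Id3 had r = 0.67 (permutation p = 0.00236, adjusted 0.0142) and rho = 0.69 (permutation p = 0.00278, adjusted 0.0167), with 0.82 within p75 (exact permutation p = 0.00212, adjusted 0.0254) and 0.82 within p110 (exact permutation p = 0.013, adjusted 0.131). Here Bmp4 was measured in 3 tumors, and in the tumor color alone r was 0.21. Id2 had no relation that passed with any of the 3 ligands, r = -0.0027 with Bmp7 and -0.47 with Bmp4 (permutation p = 0.0564, adjusted 0.169). Of the 4 relations with Bmp7, 2 passed by Pearson's r and 1 by Spearman's rho.

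**Figure D4:**
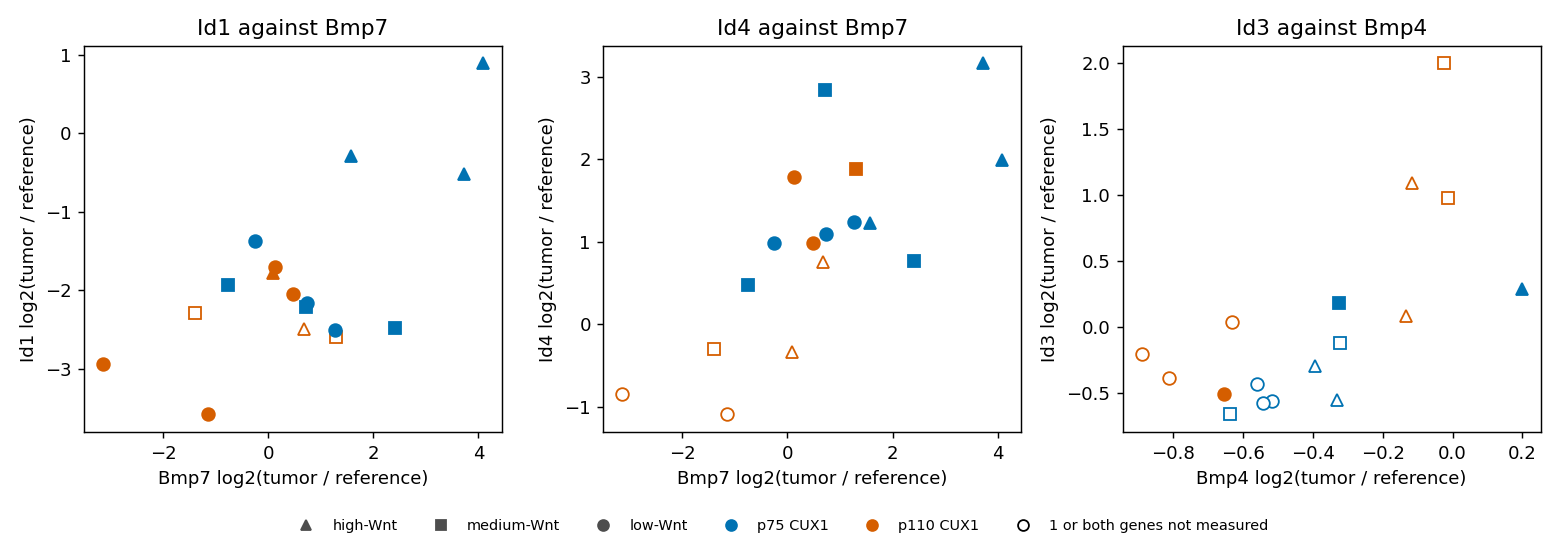
Log2 tumor over reference of an Id gene (vertical axes) against that of a BMP gene (horizontal axes), 1 point per tumor, by Wnt cluster (symbol) and transgene (color), open where 1 or both genes were not measured. The r values are 0.67 for Id1 against Bmp7, 0.75 for Id4 against Bmp7 and 0.67 for Id3 against Bmp4, the last with nearly all points open.

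The genes with the pattern most like each of 6 of these genes were sought by Pearson's r over 17 tumors among 9593 genes measured in at least 12 tumors, as a description. For Bmp7 these were Trp63 (0.85), which encodes the p63 factor of basal and squamous epithelium, the transcript BB446560 (0.85) and the keratin gene Krt23 (0.84), with r for Trp63 of 0.92 within p75 and 0.81 within p110. For Id4 they were Snai2 (0.80), which encodes the factor Slug, Cep97 (0.79) and AK083983 (0.78). Within p75 these r were 0.53, 0.45 and 0.66. Within p110, where Id4 was measured in 3 of 8 tumors, they were 0.86, 0.87 and 0.90. For Id1 they were Sp6 (0.86), Slc25a24 (0.86) and the neurotrophin receptor gene Ngfr (0.85), the last with r of 0.26 within p110. For Id2 they were Pgrmc1 (0.93), AV080718 (0.91) and the malate dehydrogenase gene Mdh1 (0.89). For Tgfb3 they were the luminal keratin gene Krt19 (0.90), Zfp768 (0.85) and Igfbp5 (0.80), and for Tgfb2 Fam20a (0.86), BC021611 (0.84) and the folate receptor gene Folr1 (0.84). Within p75 these r were 0.65, 0.82 and 0.75 for Tgfb3, and 0.765, 0.63 and 0.59 for Tgfb2. Within p110 they were 0.98, 0.865 and 0.90 for Tgfb3, and 0.93, 0.92 and 0.92 for Tgfb2. Among the marker lists, the mean of 7 basal and myoepithelial markers had r = 0.63 with Bmp7 and 0.56 with Id4, that of 7 luminal markers r = 0.77 with Tgfb3, and the same lists r = -0.08 and 0.32 with Id2. Trp63 and Krt19 are in the basal and luminal lists. The tumor p110-121 had the lowest values of Tgfb2 (-2.305), Tgfb3 (-0.44) and the luminal list (-1.82), and its part in these r was not tested. The basal list ran from 2.48 to 4.25 in high-Wnt and from -0.55 to 3.21 in low-Wnt tumors, with 6 and 5 to 7 of its 7 genes measured, and its part in the Bmp7 values was not tested.

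Other genes of the pathways gave no call between the clusters. Of 18 other BMP, GDF and activin ligands 12 had a difference above 0 between high-Wnt and low-Wnt tumors, with a median of 0.15, and 0 passed in limma. An unadjusted p under 0.05 was found for 6 of these 18, where 11.9% of all genes had one, but 4 of the 6 were measured in fewer than 5 tumors and rest on dim values. It was also found for 2 of 13 receptors, 1 of 8 Smad genes and 3 of 15 antagonists. The 13 receptors had a median of -0.34 with 3 above 0, the 8 Smad genes -0.02 with 2 above 0, the 15 BMP antagonists and modulators 0.19 with 13 above 0, and the 10 genes of TGF-β latency and activation 0.18 with 8 above 0. The 12 TGF-β responsive genes had a median of 0.24 with 10 above 0, the 9 BMP responsive genes other than Id 0.31 with 7 above 0, and the 3 E proteins that bind Id proteins 0.40 with 3 above 0. The median over all genes was 0.01. In all these lists 0 genes passed in limma in the cluster and in the histology comparison. Among the smallest p between clusters were those of Runx2, an osteogenic factor induced by BMPs (difference 1.60, SE 0.37, adjusted p 0.0934 in limma), and Cdkn2b, a cell cycle inhibitor induced by TGF-β (2.33, adjusted p 0.112 in limma). In the tumor color alone the difference was 0.28 for Runx2, whose reference color differed by -0.39, and 1.71 for Cdkn2b. Between adenosquamous and solid carcinomas they were Runx2 (1.37), the inhibitory Smad gene Smad7 (0.52, measured in 2 solid and 0 of 4 adenosquamous tumors) and Nodal (-0.45), each with an adjusted p of 0.871 in limma. All 4 adenosquamous tumors were p75, and at the Smad7 probe the reference color differed by -1.58 and the tumor color by -0.59 between p75 and p110 arrays.

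**Figure D5:**
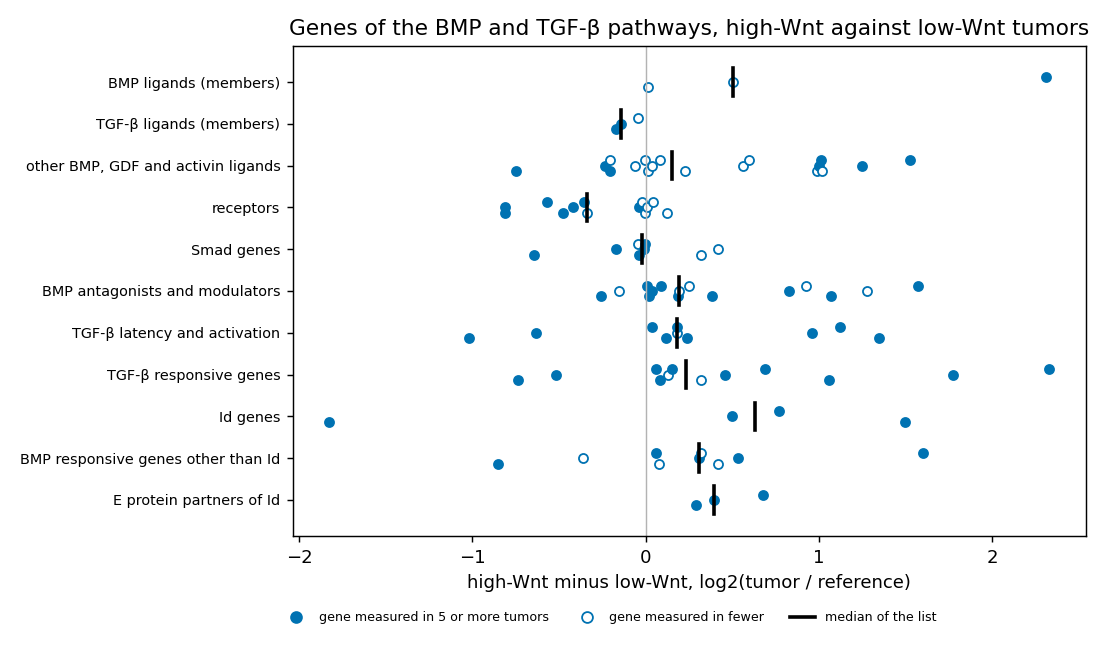
Difference between the high-Wnt and low-Wnt means (horizontal axis, log2) of each gene of the BMP and TGF-β lists. Points are genes, open where measured in fewer than 5 tumors, and black bars are medians of the lists, which lie between -0.34 (receptors) and 0.63 (Id genes), with Id2 (-1.83) the leftmost point.

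Between the transgenes 1 gene of these lists passed, Nodal, a ligand of the activin receptors. Its mean was 0.23 ± 0.13 (SD, n = 9) in p75, where it was measured in 9 tumors, and 0.82 ± 0.33 (SD, n = 8) in p110, where it was measured in 5, a difference of -0.59 (SE 0.12, adjusted p 0.0367 in limma). The tumor color alone differed by -0.08 and the reference color by 0.64, and with median centering the difference was -0.03. The call held under 12 of 31 alternatives. The part of the reference color in the Nodal value was not tested beyond these values.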

How the data were processed

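RNA from microdissected epithelial cells of 17 tumors was hybridized against an amplified reference on 2-color Agilent arrays. Intensity values in the deposited scanner files came from Feature Extraction 9.5.3.1 and were not normalized by the authors. The deposited table holds the authors' log2 ratios of tumor over reference, made with limma by normexp (offset 50), loess and averaging of swapped dyes, as checked against the scanner files (largest difference 4.98e-08). The number of tumors limits the precision, since the values of all 10 genes but Bmp2 differed more between tumors than between arrays of a tumor.

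Here spots of a probe were averaged and the brightest probe stood for a gene. Values of 28786 genes were tested in R 4.3.3 with limma 3.58.1 and statmod 1.5.0 (lmFit, eBayes, Benjamini-Hochberg adjusted p under 0.05 over all genes), with no covariate, in separate fits by cluster, histology and transgene that each used all 17 tumors. The medium-Wnt tumors and the other histological types thus shared the estimate of the spread. Single values had exact two-sided permutation tests, and relations over 17 tumors had 100000 permutations. The code was tested on simulated data. Figures were drawn with matplotlib 3.10.9. Accessions of 55.7% of probes matched the RefSeq table.

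Besides the 10 genes, those named are genes of the pathway lists that passed over all genes, otherwise the 3 with the smallest p per comparison, and the 3 genes most like each gene measured in at least 12 tumors. A gene that this rule names is not reported here. The genes and lists were chosen with earlier results of these data known. Of the listed symbols, Lrrc32, Ctgf, Emr1, Plin and Tacstd1 matched no probe. Alternatives covered the background correction, signals, centering, the tumor color alone, dim probes, probes of a gene, dyes, variance estimates, batches and tumors left out.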

Additional observations from a re-analysis of the deposited data

Results flagged for a closer look

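Among 56 sets of values (8 genes in each of 7 groups of 4 to 9 tumors), 3 values lay far from the rest of their group, where chance gives such a gap in about 1 of 20 sets. Tgfb3 was 0.35 in p75-94, while the nearest of the other adenosquamous carcinomas had 1.48. Id3 was 0.98 in p110-121, while the nearest of the other solid carcinomas had 0.18. Bmp4 was 0.20 in p75-94, while the nearest of the other p75 tumors had -0.32. Both p75-94 and p110-121 stood apart on the whole array, the first in its reference color and the second in its epithelial and immune markers, and the part of this in the 3 values was not tested.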

How the results depend on the processing

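The number of these 10 genes that passed in limma stayed at 0 in 34 of 35 alternatives for the clusters, all 34 for histology and 30 of 31 for the transgene. The exceptions were 1 within p110 tumors (Bmp4) and 2 with median centering (Bmp7 and Id1). The 3 relations of a BMP with an Id gene that passed became 1 within p75 tumors (Bmp4 with Id3, Bmp4 being measured in 2 of 9), 0 within p110 tumors and 1 in the tumor color alone (Bmp7 with Id4), and none passed both within p75 tumors and in the tumor color alone. The differences of Bmp7, Id1, Id2 and Id3 between clusters kept their sign in all 35 alternatives, and that of Bmp4 in all 34 run for it.

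Several differences changed sign, among them those of Id1 by histology (1.75) and by transgene (1.03). Between clusters, within p110 tumors, Tgfb2 was 0.49, Tgfb3 0.79 and Id4 -0.0022, and Tgfb3 was 0.21 without p110-121, p75-94 and p75-129, a choice made after seeing the data. Between adenosquamous and solid carcinomas, Tgfb2 was 0.038 with processed signals, 0.20 with median centering and 0.062 with transgene as a block. There Id2 was 0.24 with median centering and 0.039 without those 3 tumors, Id3 was 0.15 in the tumor color alone and 0.12 with transgene as a block, and Id1 was -0.11 in the tumor color alone. Between p75 and p110, Tgfb2 was 0.0044 without background correction, 0.17 with processed signals, 1.14 with median centering and 0.053 without p110-98, p110-225 and p110-374 (also chosen after seeing the data). Tgfb3 was 1.10 with median centering, 0.54 in the tumor color alone and 0.26 without those 3 weak tumors. Id1 was -0.73 in the tumor color alone, and Bmp4 was -0.034 with the tumor in Cy5 and -0.0063 without p110-121, p75-94 and p75-129. In the tumor color alone, r was -0.18 for Bmp4 with Id1 and -0.066 for Bmp7 with Id1. The cause of these changes was not tested.

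With 1 tumor left out at a time, the difference between clusters ran from -0.46 to 0.15 for Tgfb2, from -0.51 to 0.21 for Tgfb3, from 0.26 (without p110-374) to 0.67 for Id3 and from 0.32 (without p75-94) to 1.19 (without p110-225) for Id4. That between histological types ran from -0.61 (without p110-121) to 0.13 for Tgfb2, from -0.81 (without p110-121) to -0.24 (without p75-94) for Tgfb3, from 0.092 (without p75-94) to 0.33 for Bmp4, from -0.38 (without p75-94) to -0.057 (without p110-121) for Id3, from 0.86 (without p75-94) to 1.57 for Id4 and from -0.47 to 0.14 for Id2, and that between transgenes from -0.57 to 0.18 for Tgfb2, from -0.59 (without p110-121) to -0.064 (without p110-374) for Tgfb3 and from -0.045 to 0.084 for Bmp4. The genes of the whole array that passed ranged from 8 (without p110-360) to 129 (without p75-216) for the clusters, from 0 to 27 (without p75-101) for histology and from 35 (without p75-47) to 1173 (without p110-314) for the transgene. Over all alternatives these ranges were 0 to 346, 0 to 27 and 10 to 1693. No paired analysis was possible because the replicate numbers are those of single mice and groups share none. Bmp2 and Tgfb1 were too close to background for a level, and for Bmp4, Id3 and Id4 the dim tumors limit what a difference can show.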
